A study of Homo sapiens with 60 samples.

Results

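The protein-coding genes for the nuclear-encoded subunits of the oxidative phosphorylation complexes were followed in SW1783 cells treated with water extracts of digestive herbs and formulas. The rule for members used the symbol and no measured value, but was set with earlier results of these data known. It took the NDUFA, NDUFB, NDUFC, NDUFS and NDUFV genes without the NDUFAF assembly factors, SDHA to SDHD, and the UQCR, COX4I, COX5, COX6, COX7, COX8, ATP5F1, ATP5M and ATP5P genes. Of 60675 genes in the count table, 89 were members. Complex I held 40 of them, complex II 4, complex III 9, complex IV 17 and complex V 19. After the filter on low counts 84 members were tested, since COX4I2, COX6A2, COX7A1, COX8C and ATP5MGL did not pass it.

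Complexes I and II pass electrons from NADH and succinate to ubiquinone, complex III passes them to cytochrome c, and complex IV passes them to oxygen. Complexes I, III and IV pump protons across the inner mitochondrial membrane, and complex V, the ATP synthase, uses the returning protons to make ATP. A few core subunits of complexes I, III, IV and V are encoded by mitochondrial DNA, while the subunits described here are encoded in the nucleus and imported as proteins. Astrocytes and glial tumour cells also make much ATP by glycolysis.

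SW1783 is an established human astrocytoma line. Cells were treated for 24 h with the water extract of Citri Unshius Pericarpium, Cimicifugae Rhizoma, Bupleuri Radix, Aconiti Lateralis Radix Preparata, Yijung-tang or Banhasasim-tang at 500 (high dose), 100 (medium) or 20 µg/mL (low), with 3 libraries per extract and dose. Bojungikgi-tang had 1 library per dose, so its values have no replicate check. The vehicle group of 3 libraries received DMSO, at 0.1% by the sample labels but 2% by the series' design text. The design text adds that toxic extracts were given at lower doses, and the doses used here are those of the sample labels. The extracts are named here by their first word. The sample codes put the vehicle in set B1, Citri and Cimicifugae in set 5, Bupleuri and Aconiti in set 6, both Yijung-tang and Banhasasim-tang in 7, and Bojungikgi-tang alone in 8. What a set stands for is not given, so against the vehicle a treatment and its set cannot be told apart, while doses of an extract share a set. The labels name replicates but not separate cultures, so the p-values here reflect how much these samples vary, and that variation may be technical.

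Total counts ran from 18.9 to 36.4 M (mega) per library, and the members held 0.562% to 0.711% of them. VIM, an intermediate filament gene of glial tumours, had a median of 4455 CPM (counts per mega counts of the library), SOX9 68.9 CPM and SLC1A3 32.5 CPM, while GFAP and S100B had 0.103 CPM each and AQP4 and ALDH1L1 a median of 0. These 4 markers of mature astrocytes were thus at or near 0 in the line. NES, another listed marker of astrocytes and glioma, had a median of 9.0 CPM. Among the markers listed for other cell types, MOG of oligodendrocytes, AIF1 of microglia and CDH5 of endothelium had medians of 0. MBP, CSF1R and PECAM1, listed for the same 3 cell types, were read in every library, at medians of 7.09, 3.34 and 0.602 CPM. CD68, SNAP25 and PTPRC, markers of other cell types, were read at medians of 154, 33.4 and 12.8 CPM.

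A pair of libraries stood apart: replicate 3 of low-dose Citri and replicate 3 of high-dose Cimicifugae. The median member lay at -0.19 on the log2 scale below the vehicle mean in the Citri library and at -0.26 in the Cimicifugae library, against -0.17 to 0.09 in the other 58 libraries. In the Citri library 74 of 84 members lay below the vehicle mean, and in the Cimicifugae library 73. Cytosolic ribosomal protein genes lay low in the same libraries, with medians of -0.26 and -0.35, while the median of all genes lay at 0.00 in both. NDUFA1, an accessory subunit of complex I, had 29.7 and 28.9 CPM in these libraries, against 66.3, 69.4 and 62.6 CPM in the vehicle libraries. Other members far below the vehicle there were NDUFB2, at -0.76 and -0.85 on the log2 scale, and UQCRQ, at -0.87 and -0.83. Results that rest on these libraries are given below with and without them.

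In vehicle cells the levels per length spanned a wide range, with many isoforms present at low levels only. The length used joins all annotated exons of a gene, which can exceed the length of its main transcript. It was 507 bases for COX8A, 6780 for ATP5MC3 and 10908 for ATP5F1A, so the order of genes depends partly on how much exon is annotated. The highest were COX8A with 296 CPM per kb, a small subunit of complex IV, ATP5F1B with 214 CPM per kb, the catalytic β subunit of ATP synthase, and NDUFS5 with 209 CPM per kb, an accessory subunit of complex I. COX6B1, UQCR10 and NDUFA1 followed with 118, 90.4 and 86.3 CPM per kb. Among genes for alternative forms of 1 subunit, ATP5MC1 and ATP5MC2 had 28.9 and 28.4 CPM per kb and ATP5MC3 had 1.53 CPM per kb. These genes encode the same mature c subunit of the proton-driven ring behind different import sequences. NDUFA4 had 49.2 CPM per kb and its relative NDUFA4L2, known as a gene raised by low oxygen, had 0.127 CPM per kb. COX6B1 stood against COX6B2, a form known from testis, at 0.113 CPM per kb, and COX7B against COX7B2 at 31.8 and 0.182 CPM per kb. The lung form COX4I2 had no count in any of the 60 libraries. Levels of NDUFC2-KCTD14 and ATP5MF-PTCD1, which are read-through genes, and of UQCRHL, a close relative of UQCRH, are uncertain because their reads fit several genes. Of the members, 50 also have pseudogenes named after them, 189 in all, with which reads can be shared.

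Promoter sequences were at hand from RefSeq (GRCh38.p14) for 70 of the 89 members, with 83 entries of 300 bases each, 250 before and 50 after the annotated start. The sites searched on both strands were GCATGCGC for NRF1, a factor known to bind respiratory chain genes, CCGGAAG for ETS factors and AAGATGGCG for YY1. The NRF1 letters stood in 15 of 83 member promoters, 18.1%, against 3.75% of 21473 promoters of protein-coding genes and 3.05% of all 35116 promoters. The ETS letters stood in 22 member promoters, 26.5%, against 12.9% of protein-coding and 10.3% of all promoters. The YY1 letters stood in 10 member promoters, 12%, against 2.46% of protein-coding and 1.75% of all promoters. A pair of these motifs overlapped in 7 promoters in all and in 0 of the members'. The following stretches before the start, on the gene's own strand, show a member of each complex and UQCR10 beside UQCR11, with the matched letters in capitals. Of these genes, NDUFB4, SDHB and UQCR10 have their levels described below. UQCR10 and ATP5F1A held none of the motifs in the stretch shown, which says only that these letters are not in these windows. The ATP5F1A stretch spans -207 to -58 from the start, and its promoter held the ETS letters at -48 to -42, outside it. The SDHB stretch ends at -139, and its promoter also held ETS letters at -128 to -122 and YY1 letters at 11 to 19. The COX5B stretch ends at -23, and a further ETS match lay at -5 to 2.
NDUFB4 at chr3:120596159-120596308, plus strand: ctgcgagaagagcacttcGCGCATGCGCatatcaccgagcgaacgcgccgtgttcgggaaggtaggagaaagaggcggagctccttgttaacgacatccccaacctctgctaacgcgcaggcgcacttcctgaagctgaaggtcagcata
SDHB at chr1:17054171-17054282, minus strand: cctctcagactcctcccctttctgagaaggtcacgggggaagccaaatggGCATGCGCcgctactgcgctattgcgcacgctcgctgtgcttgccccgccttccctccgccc
UQCR10 at chr22:29767219-29767368, plus strand: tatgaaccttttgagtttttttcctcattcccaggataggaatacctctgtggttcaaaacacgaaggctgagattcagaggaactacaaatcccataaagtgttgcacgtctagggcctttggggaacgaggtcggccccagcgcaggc
UQCR11 at chr19:1605491-1605640, minus strand: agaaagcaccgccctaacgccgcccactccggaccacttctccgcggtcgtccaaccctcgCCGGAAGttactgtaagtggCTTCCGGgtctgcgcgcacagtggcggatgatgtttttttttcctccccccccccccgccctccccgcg
COX5B at chr2:97645890-97646039, plus strand: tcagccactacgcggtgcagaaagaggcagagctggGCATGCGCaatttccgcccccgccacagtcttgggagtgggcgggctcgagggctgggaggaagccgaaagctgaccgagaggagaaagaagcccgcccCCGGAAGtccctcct
ATP5F1A at chr18:46098354-46098503, minus strand: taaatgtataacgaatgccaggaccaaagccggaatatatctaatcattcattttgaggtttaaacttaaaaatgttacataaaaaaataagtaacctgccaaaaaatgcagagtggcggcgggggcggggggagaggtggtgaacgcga

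**Figure D1:**
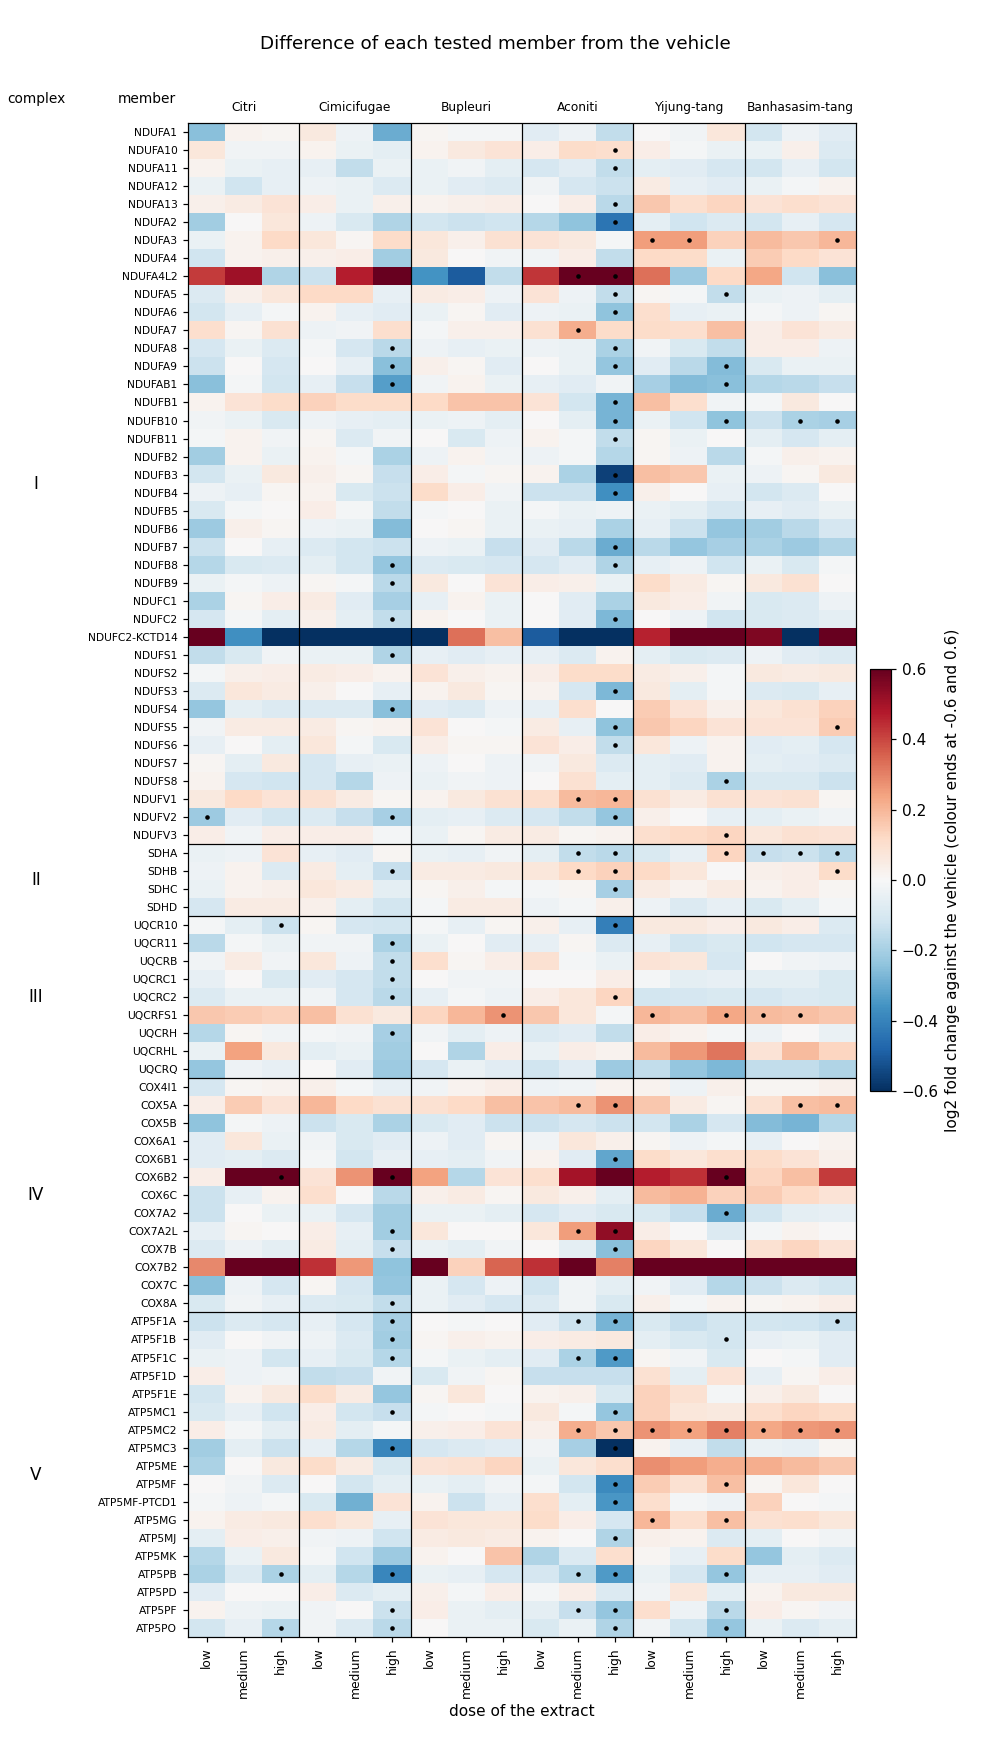
Log2 fold change against the vehicle of the 84 tested members (rows, grouped by complex) in the 18 groups of an extract and dose (columns), with colours ending at -0.6 and 0.6 and black dots where the adjusted p was under 0.05. Most dots stand in the columns of high-dose Aconiti with 42 members, high-dose Cimicifugae with 27 and high-dose Yijung-tang with 17, and colours beyond the ends belong mainly to rows of low counts such as NDUFA4L2 and COX6B2.

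Aconiti, the processed lateral root of aconite, was compared with the vehicle first. At the high dose 42 of 84 members changed (edgeR's quasi-likelihood test, Benjamini-Hochberg adjusted p under 0.05 over all genes tested), 34 of them lower and 8 higher. That is 50% of the members, against 60.4% of all tested genes, so the number of calls alone is no result about the members. By direction, 40.5% of members were lower, against 28.9% of all genes, and 9.52% were higher, against 31.5% of all genes. The changes were small, with a median size of 0.24 on the log2 scale among called members and 0.46 among all called genes. NDUFA4L2 was the 1 called member that changed by 2-fold or more. The median over all 84 members was -0.14, and over all tested genes it was near 0.00. In bulk RNA, fewer cells of a kind and less RNA per cell cannot be told apart.

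Lower calls outnumbered higher ones in complexes I, II and V, with no test of a difference between complexes. In complex I 19 of 40 members fell and 3 rose, with a median of -0.15, and in complex V 10 of 18 fell and 1 rose, with a median of -0.18. In complex III 1 of 9 fell and 1 rose, with a median of -0.04, and in complex IV 2 of 13 fell and 2 rose, with a median of -0.06. In complex II 2 of 4 fell and 1 rose. The summed level of the members was 6303 ± 144 CPM at the high dose and 6777 ± 40.9 CPM in the vehicle (SD, n = 3 each), or 93.0% of the vehicle. By complex, the sums stood at 91.2% of the vehicle for complex I, 95.0% for II, 95.4% for III, 97.4% for IV and 91.5% for V. The share of counts on mitochondrial DNA was 9.19 ± 0.173% at the high dose and 5.14 ± 0.135% in the vehicle (SD, n = 3 each), and its part in the members' values was not tested. The share covers all genes of that DNA, and its 13 subunit genes did not rise with it. Of these 0 were called higher and 6 lower, against 31.5% and 28.9% of all genes, and their median was -0.21 (log2).

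ATP5MC3, at chr2:175176258-175184607 on the minus strand of GRCh38, showed the lowest fold among called members. It had 5.41, 4.93 and 5.29 CPM in high-dose Aconiti libraries, against 11.6, 8.92 and 10.6 CPM in vehicle libraries. The groups did not overlap, and ATP5MC3 fell by 0.99 ± 0.127 (log2, SE), to 0.504 of the vehicle, with an adjusted p of 2.72e-09 in edgeR's test. The gene for the same mature protein, ATP5MC2, at chr12:53632726-53677408, had 126, 130 and 122 CPM at the high dose, against 112, 110 and 118 CPM in the vehicle. ATP5MC2 rose by 0.16 ± 0.067, with an adjusted p of 0.0382. This call was lost without high-dose replicate 1 (adjusted p = 0.0644), high-dose replicate 2 (0.133), vehicle replicate 1 (0.0866) or vehicle replicate 2 (0.122). ATP5MC3 kept its call under each alternative run.

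The other complex V members that fell included parts of the rotor and of the peripheral stalk that holds the catalytic head. ATP5F1C, the central γ subunit, had 87.8, 86.3 and 86.9 CPM at the high dose, against 114, 110 and 106 CPM in the vehicle, without overlap. It fell by 0.34 ± 0.043, with an adjusted p of 1.7e-09. ATP5PB, the b subunit of the stalk, had 137, 136 and 127 CPM, against 173, 160 and 175 CPM in the vehicle, and fell by 0.34 ± 0.063. ATP5MF, the f subunit of the membrane part, had 111, 111 and 108 CPM, against 141, 144 and 145 CPM in the vehicle, and fell by 0.38 with an adjusted p of 8.07e-09. The catalytic β subunit ATP5F1B was not called, at 0.06 with an adjusted p of 0.167. Without the 2 libraries that stood apart it was called at the same fold, with an adjusted p of 0.0095.

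NDUFB3, an accessory subunit of the membrane arm of complex I, had 10.2, 13.4 and 11.4 CPM at the high dose, against 16.9, 17.0 and 18.2 CPM in the vehicle. All 3 treated libraries lay below all vehicle libraries, and NDUFB3 fell by 0.56 ± 0.12 with an adjusted p of 6.22e-05. NDUFB4, another subunit of that arm whose promoter holds the NRF1 letters shown above, had 35.4, 38.8 and 35.9 CPM, against 46.7, 46.9 and 49.1 CPM in the vehicle, and fell by 0.37 ± 0.069. NDUFA2, an accessory subunit of the arm in the matrix, had 25.3, 27.4 and 22.5 CPM, against 35.2, 31.7 and 35.6 CPM in the vehicle, and fell by 0.44 ± 0.133. NDUFV1, a catalytic core subunit that binds NADH and FMN, went the other way. It had 69.1, 68.0 and 71.5 CPM, against 59.9, 63.5 and 58.6 CPM in the vehicle, and rose by 0.20 ± 0.049 with an adjusted p of 0.000523. No other nuclear core subunit of complex I was called higher. A further call on the higher side was NDUFA10, at 0.10 with an adjusted p of 0.0426. It was lost without high-dose replicates 1 or 3 or without any 1 of the 3 vehicle replicates, where the adjusted p ran from 0.0697 to 0.118.

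NDUFA4L2, at chr12:57234903-57240715 on the minus strand, had 1.09, 1.3 and 1.25 CPM at the high dose, against 0.151, 0.56 and 0.358 CPM in the vehicle. The groups did not overlap, and NDUFA4L2 rose by 1.73 ± 0.341, with an adjusted p of 1.95e-05. Its counts were low, from 2 to 29 over the 60 libraries, so its fold is imprecise. Its abundant relative NDUFA4, named for complex I but since assigned to complex IV, was not called at -0.15 with an adjusted p of 0.154.

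In complexes III and IV single members moved strongly within groups that moved little. UQCR10, a small subunit of complex III, had 72.4, 63.0 and 64.5 CPM at the high dose, against 88.2, 88.4 and 87.9 CPM in the vehicle, without overlap. It fell by 0.41 ± 0.05, with an adjusted p of 9.62e-10, and the core protein UQCRC2 rose by 0.13, a call lost without high-dose replicate 1 at an adjusted p of 0.0501. COX7A2L, at chr2:42333546-42425088 on the minus strand, is known to join complexes III and IV into supercomplexes. It had 72.2, 73.0 and 78.3 CPM, against 52.2, 52.2 and 50.5 CPM in the vehicle, and rose by 0.53 ± 0.046, or 1.44-fold, with an adjusted p of 1.93e-14. COX5A, a subunit bound on the matrix side, had 65.1, 67.0 and 66.6 CPM, against 50.8, 57.5 and 56.1 CPM in the vehicle, and rose by 0.27 ± 0.061. COX6B1, which faces the space between the membranes, had 89.9, 88.3 and 88.0 CPM, against 109, 106 and 116 CPM in the vehicle, and fell by 0.31 ± 0.042. In each of these 4 genes the treated libraries lay all on 1 side of the vehicle libraries.

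Complex II, the only complex with no mitochondrially encoded subunit, was split. SDHA, the flavoprotein, had 114, 108 and 108 CPM at the high dose, against 122, 128 and 119 CPM in the vehicle, and fell by 0.16. SDHC, a membrane anchor, had 97.9, 93.3 and 90.5 CPM, against 111, 106 and 106 CPM in the vehicle, and fell by 0.20. SDHB, the iron-sulfur subunit, had 80.0, 79.5 and 82.4 CPM, against 72.2, 72.7 and 74.4 CPM in the vehicle, and rose by 0.14. None of the 3 overlapped with the vehicle libraries.

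**Figure D2:**
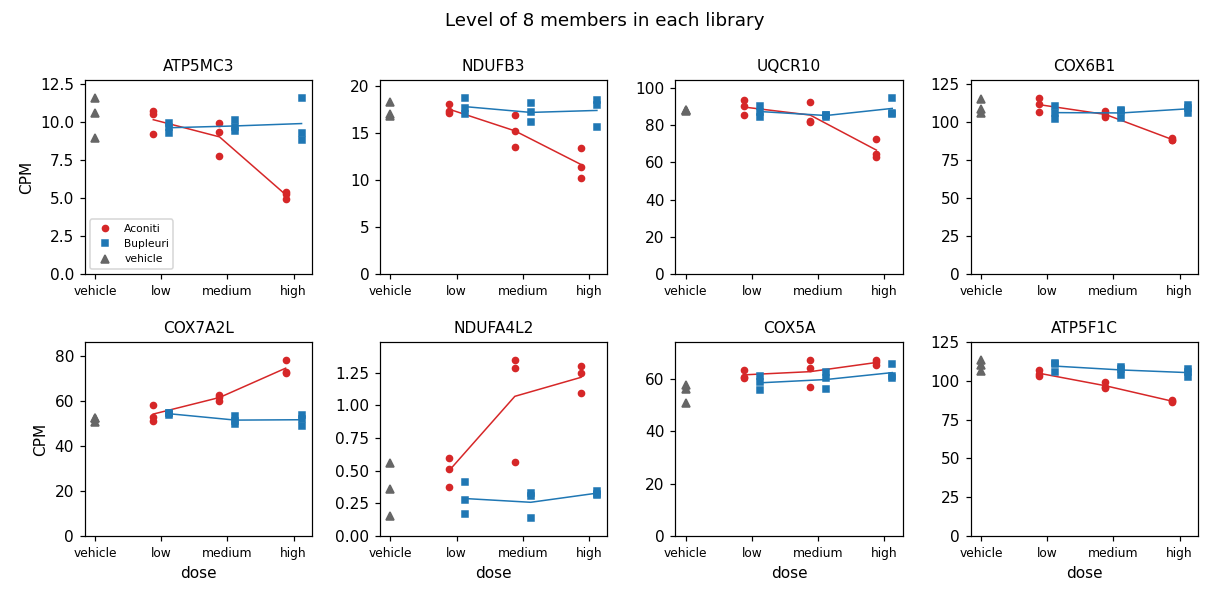
CPM of 8 members in each library of the vehicle and of the low, medium and high dose (x axis), with Aconiti as red circles and Bupleuri, whose codes fall in the same set, as blue squares, and lines through the group means. ATP5MC3, NDUFB3 and UQCR10 fall and COX7A2L and NDUFA4L2 rise at high-dose Aconiti, while the Bupleuri points stay near the vehicle.

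The Aconiti calls grew with the dose. At the low dose 0 members were called in edgeR's test, with 2 at an unadjusted p under 0.05 and 0 in DESeq2, against 2.19% of all genes. At the medium dose 12 members were called, 14.3%, against 31.1% of all genes. Of these 7 were higher and 5 lower, against 2761 and 2587 of all 17190 genes. Leaving out medium-dose replicate 3 or vehicle replicate 1 left 7 member calls each, and leaving out vehicle replicate 3 gave 1 call at the low dose. Between high and low dose, which share a set, 36 members changed, 42.9%, against 57.8% of all genes. By direction 32 were lower and 4 higher, against 4704 and 5230 of all 17190 genes.

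Members differed in the dose at which they moved. In the vehicle, low, medium and high-dose groups COX7A2L spanned 50.5 to 52.2, 51.1 to 58.4, 59.9 to 62.7 and 72.2 to 78.3 CPM. The medium-dose call was 0.25 with an adjusted p of 2.4e-05, and the high dose lay above the low dose by 0.46. ATP5F1C was called at the medium dose too, at -0.19 with an adjusted p of 0.000551, with 99.4, 95.3 and 96.0 CPM there. ATP5MC3 at the medium dose had 9.35, 9.88 and 7.78 CPM, which overlapped with the vehicle libraries. NDUFA2, called against the vehicle, missed the threshold between high and low dose at -0.27 with an adjusted p of 0.0804. The summed level was 99.3% of the vehicle at the low dose, 99.0% at the medium dose and 93.0% at the high dose. The mitochondrial share of counts did not follow that order, at 6.97 ± 0.559%, 10.7 ± 0.162% and 9.19 ± 0.173% (SD, n = 3 each).

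Bupleuri, the root in the same code set, was compared with Aconiti at the high dose. In this comparison 36 members changed, 42.9%, against 58.3% of all genes. In Bupleuri 32 were higher and 4 lower, against 4820 and 5209 of all 17190 genes. ATP5MC3 had 8.79, 9.27 and 11.6 CPM in Bupleuri, against 5.41, 4.93 and 5.29 CPM in Aconiti, a difference of 0.92. COX7A2L had 49.0, 53.8 and 52.1 CPM in Bupleuri, against 72.2, 73.0 and 78.3 CPM in Aconiti, a difference of -0.53 with an adjusted p of 1.43e-14 in edgeR's test. Neither gene overlapped between the extracts. NDUFB3 and UQCR10 were higher in Bupleuri by 0.57 and 0.42 and NDUFA4L2 lower at -1.88.

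Bupleuri itself called 1 member against the vehicle at the high dose, or 1.19%, against 7.02% of all genes (1.19% higher and 0.00% lower, against 3.01% and 4.01% of all genes). The called member was UQCRFS1, the Rieske iron-sulfur protein of complex III, at chr19:29205321-29213541 on the minus strand. UQCRFS1 had 105, 99.8 and 103 CPM in Bupleuri, against 74.1, 83.6 and 98.6 CPM in the vehicle, and rose by 0.27 ± 0.06 with an adjusted p of 0.00201. The vehicle libraries spread widely here, and without vehicle replicate 1 no member was called, with UQCRFS1 at 0.18 and an adjusted p of 0.0817. In Citri, of another code set, UQCRFS1 lay at 0.14, 0.15 and 0.16 at the high, medium and low dose, without a call. It was also called higher in both formulas, as given below, so its rise was not particular to Bupleuri. Without vehicle replicate 2 there were 2 calls. At the medium and low dose 0 members were called, with 2 and 1 at an unadjusted p under 0.05 and 0 in DESeq2, against 0.413% and 0.0756% of all genes, and without vehicle replicate 3 the medium dose had 1. High against low dose called 0 members, with 3 at an unadjusted p under 0.05 and 0 in DESeq2, against 4.37% of all genes. The summed level at the high dose was 6751 ± 20.0 CPM (SD, n = 3), or 99.6% of the vehicle.

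Cimicifugae, a rhizome in another code set, gave nearly only lower calls at the high dose. Of 84 members 27 changed, 32.1%, against 32.5% of all genes, a share near that of the background. By direction, 26 were lower, 31%, against 17.5% of all genes, and 1 was higher, 1.19%, against 15.1% of all genes. By complex 9 of 40 fell in complex I, 1 of 4 in II, 5 of 9 in III, 3 of 13 in IV and 8 of 18 in V, and the medians lay between -0.09 and -0.16. Replicate 3 of this group is a library that stood apart. Without replicate 3 alone there were 10 calls and without vehicle replicate 1 there were 18. Without both libraries that stood apart 13 of 84 were called, all lower. Over all genes 15.1% were lower and 12.7% higher in that run, so the number of lower calls was near the background share. A fit on the compared groups alone gave 4, ATP5PB among them, and its share over all genes is not given here.

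ATP5PB, at chr1:111448864-111462773, showed the lowest adjusted p of these members. It had 138, 142 and 108 CPM at high-dose Cimicifugae, against 173, 160 and 175 CPM in the vehicle. All treated libraries lay below the vehicle, and ATP5PB fell by 0.39 ± 0.062 with an adjusted p of 2.32e-06 in edgeR's test, or at -0.27 with an adjusted p of 1.57e-06 without the libraries that stood apart. ATP5F1B had 450, 451 and 387 CPM, against 498, 502 and 492 CPM in the vehicle, and fell by 0.21 ± 0.038. NDUFA9, an accessory subunit near the ubiquinone site of complex I, had 51.4, 49.5 and 41.8 CPM, against 59.3, 54.8 and 56.1 CPM in the vehicle, and fell by 0.25. Without the libraries that stood apart ATP5F1B and NDUFA9 stayed called, at -0.14 and -0.17.

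Other members that stayed called without those libraries were the iron-sulfur subunits NDUFS1 and SDHB and the core proteins UQCRC1 and UQCRC2 of complex III. NDUFS1 had 72.8, 73.7 and 66.4 CPM at high-dose Cimicifugae, against 80.1, 83.5 and 77.6 CPM in the vehicle, and SDHB had 66.7, 66.7 and 65.7 CPM, against 72.2, 72.7 and 74.4 CPM. Neither overlapped, and their folds were -0.18 and -0.14. COX7A2L, higher in Aconiti, was lower here with 46.6, 45.4 and 42.2 CPM, against 52.2, 52.2 and 50.5 CPM in the vehicle, and fell by 0.21 with an adjusted p of 0.000468.

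Calls that rested on replicate 3 included NDUFAB1, the mitochondrial acyl carrier protein. It had 33.1, 34.2 and 22.2 CPM at high-dose Cimicifugae, against 39.7, 37.1 and 35.5 CPM in the vehicle, and its value of -0.33 became -0.15 with an adjusted p of 0.209 without replicate 3. ATP5MC3 had 7.91, 9.69 and 6.09 CPM, which overlapped with the vehicle, and its value of -0.39 became -0.23 with an adjusted p of 0.13 without it. UQCRH, the acidic hinge protein of complex III, stood at -0.20, and at -0.08 without it. COX6B2 was the 1 member called higher, at 0.97 ± 0.319 with an adjusted p of 0.0157, and lost the call at 0.0513 without replicate 3 and at 0.087 without vehicle replicate 3.

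Calls at the other doses of Cimicifugae were few or none. At the medium dose 0 members were called, with 14 at an unadjusted p under 0.05 and 2 in DESeq2, against 6.63% of all genes, and without vehicle replicate 1 or 3 there was 1. At the low dose 0 were called, with 3 at an unadjusted p under 0.05 and 1 in DESeq2, against 1.27% of all genes, and without vehicle replicate 3 there was 1. High against low dose, 24 members changed, 28.6%, against 25.1% of all genes. By direction 23 were lower and 1 higher, against 2313 and 2004 of all 17190 genes. Without the 2 libraries that stood apart there were 9 members, all lower. Over all genes 10.8% were lower and 9.14% higher in that run, so the number of lower calls was near the background share. Leaving out a single library gave 7 without high-dose replicate 3, 38 and 39 without high-dose replicates 1 and 2, and 14 without low-dose replicates 1 or 2. ATP5PB had 138, 142 and 108 CPM at the high dose, against 160, 164 and 162 CPM at the low dose. The summed level was 100.4% of the vehicle at the low dose, 96.5% at the medium dose and 91.4% at the high dose, where the libraries had 6524, 6533 and 5526 CPM.

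**Figure D3:**
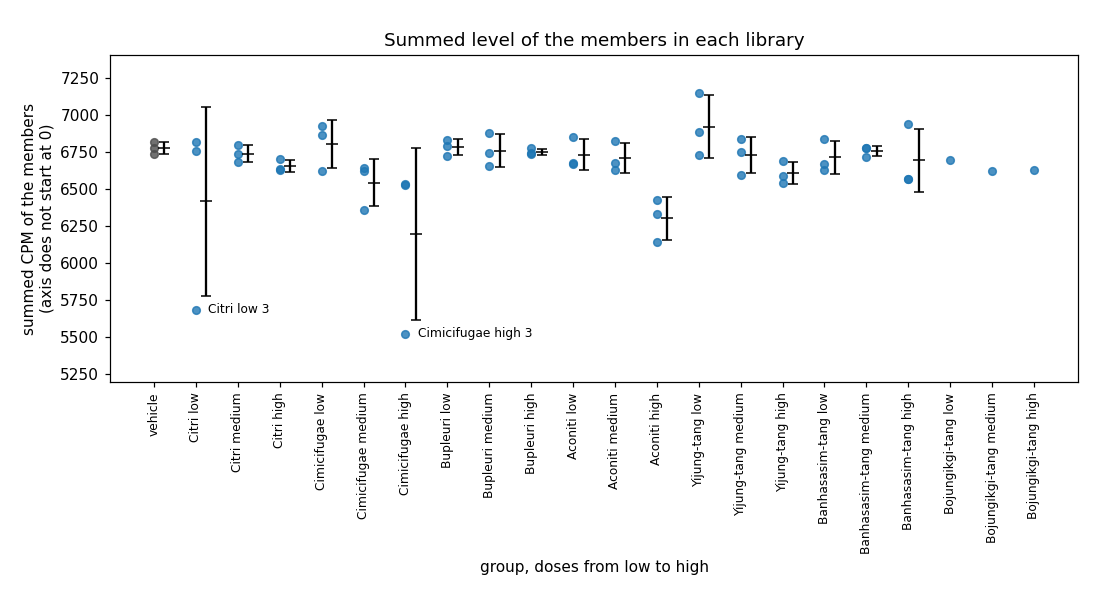
Summed CPM of all members in each library (points), with the mean ± SD of the 3 libraries to the right of the points; the axis does not start at 0. Replicate 3 of low-dose Citri at 5682 CPM and replicate 3 of high-dose Cimicifugae at 5526 CPM lie lowest, and the high-dose Aconiti libraries lie below the vehicle mean of 6777 CPM.

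Citri, the peel in the same code set, called 4 members at the high dose, 4.76%, against 21.6% of all genes. One direction held 3 lower, 3.57%, against 11.8% of all genes, and the other 1 higher, 1.19%, against 9.82% of all genes. The lower ones were ATP5PB, the OSCP subunit ATP5PO and UQCR10. ATP5PB had 147, 149 and 148 CPM at high-dose Citri, against 173, 160 and 175 CPM in the vehicle, at -0.19. It lost the call without high-dose replicate 1 or vehicle replicates 1 or 3, with adjusted p from 0.0586 to 0.0931. UQCR10, at -0.13, lost it without any 1 of the 6 libraries compared, with adjusted p from 0.0515 to 0.114, and ATP5PO, at -0.17, without 4 of them, from 0.0503 to 0.0836. Without high-dose replicate 1, high-dose replicate 2 or vehicle replicate 1 the members called were 1, 2 and 1.

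COX6B2, at chr19:55349306-55354814 on the minus strand, was the member called higher. It had 0.951, 1.24 and 1.12 CPM at high-dose Citri, against 0.554, 0.431 and 0.307 CPM in the vehicle, without overlap. It rose by 1.34 ± 0.308 with an adjusted p of 0.000997 in edgeR's test. Its counts were 5 to 29.6 over all libraries, so this is a change at a very low level. The low dose of Citri had 0.472, 0.446 and 0.414 CPM, which fell within the vehicle's range.

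The other Citri comparisons had few calls. At the medium dose 0 members were called, with 4 at an unadjusted p under 0.05 and 0 in DESeq2, against 2.07% of all genes, and 1 without vehicle replicate 3. At the low dose 1 was called, against 1.88% of all genes, and 0 without its replicate 3. It was NDUFV2, an iron-sulfur subunit of complex I, at -0.22 with an adjusted p of 0.0352. The low-dose count was 3 and 5 without low-dose replicates 1 and 2, 0 without vehicle replicates 1 or 2, and 2 without vehicle replicate 3. High against low dose, 3 members were called, against 18.2% of all genes. All 3 were higher at the high dose, while 1408 of all 17190 genes were higher and 1727 lower. These members were NDUFS1 at 0.14, SDHA at 0.12 and COX6B2 at 1.29. Without the 2 libraries that stood apart there were 4, 1 higher and 3 lower, and without low-dose replicates 1 or 2 there were 11.

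Citri set against Cimicifugae at the high dose gave 7 members, 8.33%, against 12.3% of all genes. All 7 were higher in Citri, while 1119 of all 17190 genes were higher and 991 lower. ATP5F1B was higher by 0.20 with an adjusted p of 0.000199, ATP5PB by 0.20 and COX7A2L by 0.21. Without the libraries that stood apart 2 members were left. Leaving out single libraries gave 16, 20 and 2 without Cimicifugae replicates 1, 2 and 3, and 4, 4 and 3 without Citri replicates 1, 2 and 3.

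Yijung-tang, a formula in the last code set with replicates, changed 17 of 84 members at the high dose, 20.2%, against 32.0% of all genes. Of these 10 were lower, 11.9%, against 16.7% of all genes, and 7 were higher, 8.33%, against 15.3% of all genes. The median over the members was -0.03. Leaving out high-dose replicate 1 or vehicle replicate 1 left 11 calls each. Without the 2 libraries that stood apart, or with no filter on low counts, more members were called, as listed in the last section. The share over all genes in those runs is not given here, so the low share of member calls depends on the setting. COX6B2 had 1.04, 0.928 and 1.17 CPM at the high dose, against 0.554, 0.431 and 0.307 CPM in the vehicle, and rose by 1.26 ± 0.313 with an adjusted p of 0.00138 in edgeR's test. COX7A2, the widespread form of its subunit, had 88.5, 86.7 and 77.4 CPM, against 108, 103 and 99.5 CPM in the vehicle, and fell by 0.30 ± 0.09. Its call was lost without high-dose replicate 3, at an adjusted p of 0.0643.

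NDUFA9 had 49.1, 47.0 and 45.6 CPM at high-dose Yijung-tang, against 59.3, 54.8 and 56.1 CPM in the vehicle, and fell by 0.26 with an adjusted p of 0.000478. NDUFB10, an accessory subunit of the membrane arm of complex I, had 59.2, 60.1 and 63.7 CPM, against 67.4, 70.5 and 78.0 CPM in the vehicle, and fell by 0.24. Both genes lay below the vehicle in all 3 libraries. UQCRFS1 rose by 0.23 with 94.9, 102 and 103 CPM, against 74.1, 83.6 and 98.6 CPM in the vehicle. Its groups overlapped, and without vehicle replicate 1 its adjusted p was 0.0836.

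SDHA, at chr5:218241-256700, separated the doses of Yijung-tang and the formulas of the set. It had 128, 129 and 146 CPM at high-dose Yijung-tang, against 118, 116 and 114 CPM at its low dose, a difference of 0.21 with an adjusted p of 1.62e-05 in edgeR's test. Against the vehicle, with 122, 128 and 119 CPM, it rose by 0.13, and that call was lost without high-dose replicate 3 (0.199) or vehicle replicate 3 (0.0543). Against high-dose Banhasasim-tang, with 105, 114 and 113 CPM, it was higher by 0.29 ± 0.037 with an adjusted p of 3.43e-08. All high-dose Yijung-tang libraries lay above those of its low dose and of Banhasasim-tang.

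Between high and low dose of Yijung-tang 12 members changed, 14.3%, against 21.7% of all genes. By direction 10 were lower and 2 higher, against 1972 and 1753 of all 17190 genes. ATP5PF, the F6 subunit of the peripheral stalk, was lower, at -0.25 with an adjusted p of 2.21e-05. Leaving out high-dose replicate 3, low-dose replicate 2 or low-dose replicate 3 gave 5, 6 and 7 calls. At the medium dose 2 members were called, NDUFA3 at 0.25 and ATP5MC2 at 0.24, against 6.28% of all genes, with 1 left without medium-dose replicate 1, medium-dose replicate 2 or vehicle replicate 1, and 0 without vehicle replicate 2. At the low dose 4 were called, NDUFA3, UQCRFS1, ATP5MC2 and the g subunit ATP5MG, all higher by 0.20 to 0.27, against 6.38% of all genes, with 1 without low-dose replicate 2 or vehicle replicate 2, and 2 without vehicle replicate 1.

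Banhasasim-tang changed 8 members at the high dose, 9.52%, against 16.8% of all genes. Of these 5 were higher, 5.95%, against 7.99% of all genes, and 3 were lower, 3.57%, against 8.82% of all genes. Leaving out high-dose replicate 2 gave 5 calls, and leaving out vehicle replicates 1, 2 and 3 gave 4, 5 and 5. SDHA fell by 0.16 with an adjusted p of 0.00162 in edgeR's test. NDUFB10 had 60.4, 61.6 and 65.8 CPM, against 67.4, 70.5 and 78.0 CPM in the vehicle, and fell by 0.20, with the call lost without vehicle replicate 3 at an adjusted p of 0.0558. NDUFA3, a small subunit of complex I, had 39.7, 34.8 and 40.9 CPM, against 34.4, 31.9 and 33.8 CPM in the vehicle, and rose by 0.20, but its call was lost without high-dose replicates 1 or 3 or vehicle replicate 2, with adjusted p from 0.0973 to 0.138.

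At the medium dose of Banhasasim-tang 5 members were called, NDUFB10 at -0.19, SDHA at -0.13, UQCRFS1 at 0.18, COX5A at 0.18 and ATP5MC2 at 0.26, against 8.32% of all genes, and 2 or 3 were left without any 1 of the 6 libraries. At the low dose 3 were called, SDHA at -0.14, UQCRFS1 at 0.19 and ATP5MC2 at 0.23, against 5.75% of all genes. There 0 were left without low-dose replicate 1 or vehicle replicate 2, and 1 without low-dose replicate 2, low-dose replicate 3 or vehicle replicate 1. Between high and low dose 0 were called, with 2 at an unadjusted p under 0.05 and 1 in DESeq2, against 6.67% of all genes. At the high dose 11 members differed between Yijung-tang and Banhasasim-tang, 13.1%, against 23.8% of all genes. In Yijung-tang 4 were higher and 7 lower, against 1902 and 2183 of all 17190 genes. The count of members was 4 and 6 without Banhasasim-tang replicates 2 and 3, and 6 and 5 without Yijung-tang replicates 1 and 3.

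ATP5MC2 was higher in both formulas at every dose. At the high dose Yijung-tang had 154, 130 and 133 CPM and Banhasasim-tang 139, 123 and 147 CPM, against 112, 110 and 118 CPM in the vehicle. Neither formula overlapped with the vehicle, and the folds were 0.30 with an adjusted p of 0.000443 and 0.27 with an adjusted p of 0.00259 in edgeR's test. At the low and medium dose it was called too, at 0.27 and 0.24 in Yijung-tang and 0.23 and 0.26 in Banhasasim-tang, but without vehicle replicate 2 no member stayed called at medium-dose Yijung-tang or low-dose Banhasasim-tang. Between high and low dose of Yijung-tang the difference was 0.02 with an adjusted p of 0.863, with 139 ± 13.4 CPM at the high dose and 137 ± 10.6 CPM at the low dose (SD, n = 3 each). The vehicle is in another set than the formulas, so a value that is alike at all doses cannot be told apart from a difference between sets.

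**Figure D4:**
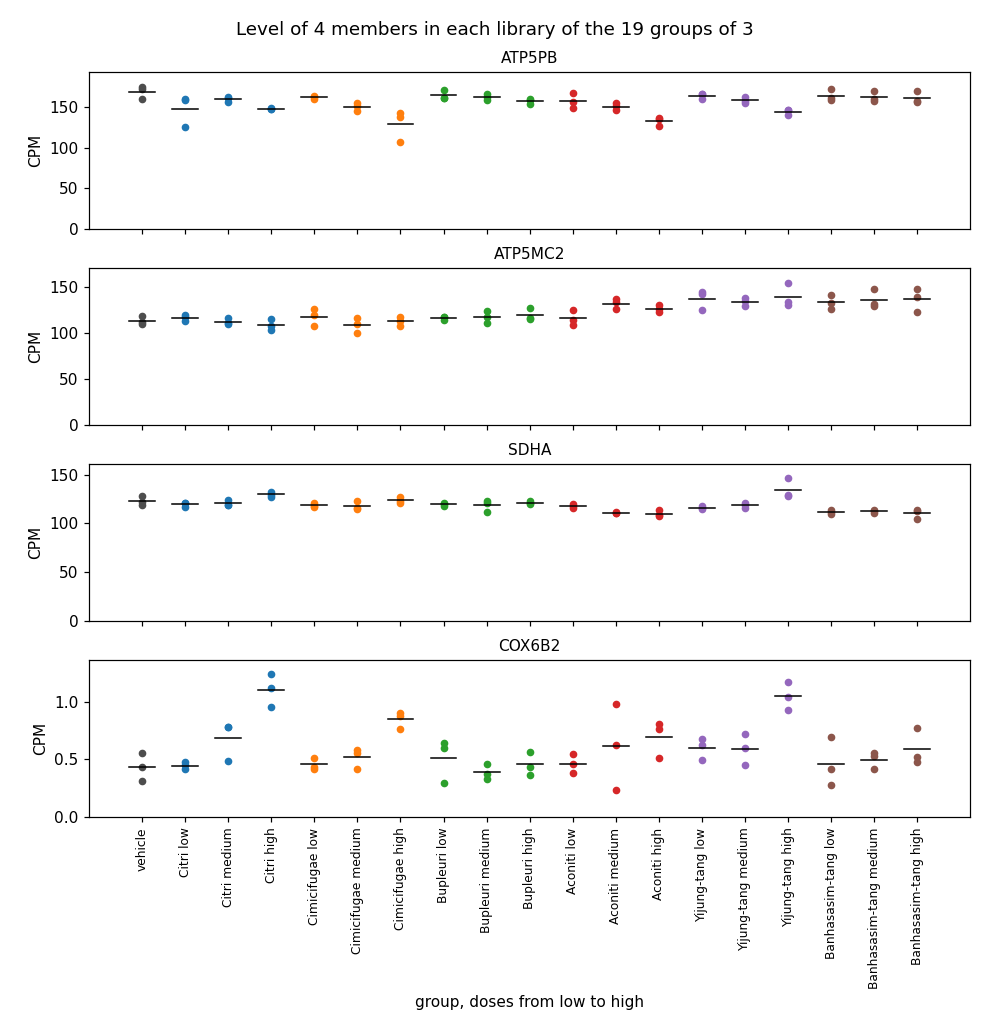
CPM of ATP5PB, ATP5MC2, SDHA and COX6B2 in each library (points) of the 19 groups of 3, with bars at the group means. ATP5PB is lowest at the high doses of Cimicifugae and Aconiti, ATP5MC2 is raised at all doses of Yijung-tang and Banhasasim-tang, SDHA is highest at high-dose Yijung-tang, and COX6B2 is near 1 CPM at the high doses of Citri and Yijung-tang.

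The differences between doses were set against each other within each code set. For Citri against Cimicifugae 17 members differed, 20.2%, against 11.1% of all genes. All 17 were higher on the Citri side, while 953 of all 17190 genes were higher and 960 lower. Without the 2 libraries that stood apart 0 members were left. Leaving out single libraries gave 30, 40 and 3 without high-dose Cimicifugae replicates 1, 2 and 3, 34, 33 and 3 without low-dose Citri replicates 1, 2 and 3, and 11 without low-dose Cimicifugae replicate 1. For Bupleuri against Aconiti 20 differed, 23.8%, against 44.0% of all genes. By direction 19 were higher and 1 lower, against 3624 and 3937 of all 17190 genes. ATP5MC3 differed by 1.00 with an adjusted p of 2.78e-06 and COX7A2L by -0.53 with an adjusted p of 1.34e-09 in edgeR's test. For Yijung-tang against Banhasasim-tang 4 differed, against 10.1% of all genes, namely SDHA at 0.23, SDHB at -0.19, COX5A at -0.25 and ATP5PF at -0.20. That count was 1 and 2 without Banhasasim-tang high-dose replicate 3 and low-dose replicate 1, and 2 without Yijung-tang high-dose replicate 3, low-dose replicate 2 or low-dose replicate 3.

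**Figure D5:**
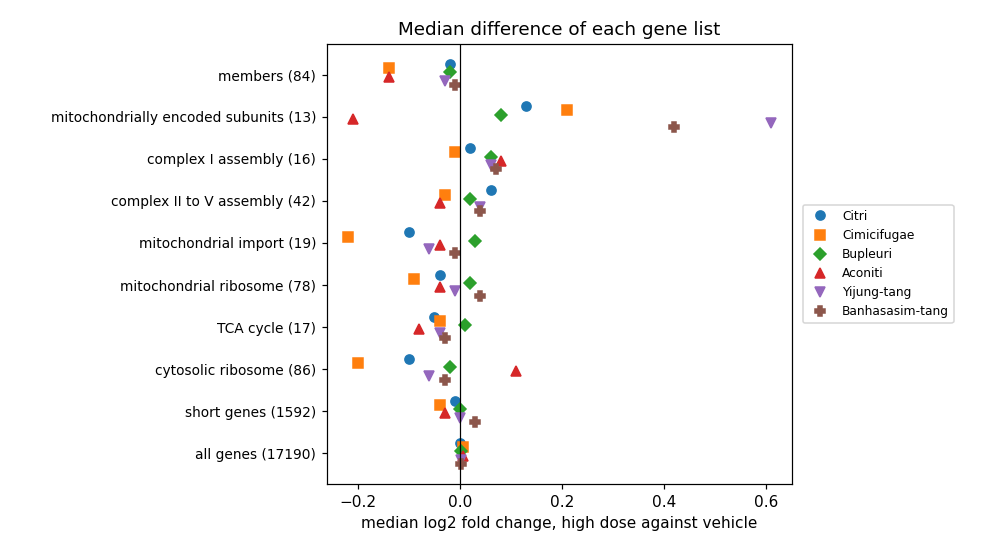
Median log2 fold change at the high dose against the vehicle of the 84 members, of 8 other gene lists and of all 17190 tested genes, for the 6 extracts. The mitochondrially encoded subunits lie at 0.61 in Yijung-tang and 0.42 in Banhasasim-tang, where the members lie at -0.03 and -0.01, and at -0.21 in Aconiti, where the members lie at -0.14; the vehicle is in another code set than the extracts.

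The partner subunits encoded by mitochondrial DNA were mostly called in the formulas against the vehicle, but few or none between doses. All 13 rose at high-dose Yijung-tang, with a median of 0.61, and 10 of 13 rose at high-dose Banhasasim-tang, with a median of 0.42. Over all genes 15.3% and 7.99% were higher there. At high-dose Aconiti 6 of the 13 fell and 0 rose, against 28.9% and 31.5% of all genes. Their median was -0.21, with MT-CO2, a catalytic subunit of complex IV, at -0.55. At high-dose Cimicifugae 2 rose and 0 fell, with 0 called without the 2 libraries that stood apart, and for Citri and Bupleuri 0 were called. High against low dose, which share a set, 2 of 13 rose in Yijung-tang, with a median of 0.17, and 0 were called in Banhasasim-tang, with a median of 0.06. In Aconiti 2 fell high against low dose, with a median of -0.01. Against the vehicle these values cannot be told apart from a difference between sets. Libraries were made from mRNA, and how that selected mitochondrial transcripts was not tested.

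Genes that build and regulate the complexes are given beside the shares over all genes, which were 31.5% higher and 28.9% lower at high-dose Aconiti and 15.1% higher and 17.5% lower at high-dose Cimicifugae. Many of these list counts lie near those shares and are no result about the lists. Of 16 complex I assembly genes 5 rose and 1 fell at high-dose Aconiti, with ECSIT at 0.38 and NDUFAF2 at 0.29. Of 42 assembly genes of complexes II to V 10 rose and 13 fell, from SDHAF4 at 0.86 to COA5 at -0.52. TMEM70, an assembly factor of ATP synthase, fell by 0.50. At high-dose Cimicifugae 1 complex I assembly gene rose and 1 fell, and of the others 6 rose and 7 fell. These counts were 2 and 0, and 8 and 3, without the 2 libraries that stood apart. Among 6 genes outside the rule, electron carriers and the ATP synthase inhibitor, 3 rose and 2 fell at high-dose Aconiti, with the inhibitor ATP5IF1 at -0.45 and cytochrome c1, CYC1, at 0.19. Of 15 regulators of mitochondrial genes 5 rose and 2 fell, with POLRMT, the mitochondrial RNA polymerase, at 0.76, ESRRA, a nuclear receptor of respiratory genes, at 0.48 and TFAM, which packs mitochondrial DNA, at -0.27. Cimicifugae had 2 up and 4 down, with and without the libraries that stood apart, and the coactivator PPARGC1A was at -0.54.

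Import and translation genes are given for Aconiti and Cimicifugae. Of 19 import genes 12 fell and 1 rose at high-dose Cimicifugae, with a median of -0.22, and 7 fell and 4 rose at high-dose Aconiti, where TIMM44, which tethers the import motor, was at 0.85. Of 78 mitochondrial ribosome genes 22 fell and 1 rose in Cimicifugae and 22 fell and 17 rose in Aconiti. Of 86 cytosolic ribosome genes 59 fell and 0 rose in Cimicifugae, with a median of -0.20, and 28 rose and 2 fell in Aconiti, with a median of 0.11. Of 17 genes of the tricarboxylic acid cycle 6 rose and 6 fell in Aconiti, with OGDH at 0.45 and IDH2 at -0.51, and 2 rose and 6 fell in Cimicifugae. In a check chosen after seeing the data, Cimicifugae had without the 2 libraries that stood apart 10 import genes lower and 0 higher, 13 mitochondrial ribosome genes lower and 3 higher, 41 cytosolic ribosome genes lower and 0 higher, and again 6 genes of the tricarboxylic acid cycle lower and 2 higher. The shares over all genes were then 15.1% lower and 12.7% higher. The lower calls of the members thus stood beside lower ribosomal protein genes in Cimicifugae and beside higher ones in Aconiti, and the part of either in the members' values was not tested. In the Cimicifugae libraries 1, 2 and 3 the ribosomal medians against the vehicle mean were -0.12, -0.12 and -0.35 and the members' medians -0.04, -0.05 and -0.26.

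Coding length was set beside the calls, because the members are short genes with a median coding length of 411 bases. Of 1592 tested genes with a coding sequence of at most 600 bases, 439 rose and 486 fell at high-dose Aconiti, with a median of -0.03. The 60 members of that length had 4 up and 24 down with a median of -0.15, and the 24 longer members 4 up and 10 down with a median of -0.05. At high-dose Cimicifugae the short genes had 179 up and 369 down, with a median of -0.04, the short members 1 up and 14 down and the longer members 0 up and 12 down, with a median of -0.14 in both. Without the libraries that stood apart these were 187 up and 239 down for the short genes, 0 up and 2 down for the short members and 0 up and 11 down for the longer members. The part of length in these values was not tested.

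Bojungikgi-tang, with 1 library per dose, had summed levels of 6697, 6622 and 6631 CPM at the low, medium and high dose, or 98.8%, 97.7% and 97.8% of the vehicle mean. These values have no test.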

How the data were processed

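SW1783 RNA was measured in 60 libraries. Per the labels' protocols, a directional MGI mRNA kit turned total RNA into libraries, which were read as paired ends. Per the submitters' processing notes, the tools were RSEM 1.3.3, STAR 2.7.3a, Trim Galore 0.6.5 and FastQC 0.11.9, and the builds hg38 and GRCh38. The sources used here give neither the annotation nor the strand setting of the counting, so reads of overlapping genes may be shared. The deposited values are the authors' RSEM expected counts per gene, which divide reads between similar genes by estimate.

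The counts were rounded. Genes were kept with filterByExpr by group (17190 genes, 57 libraries in 19 groups), and libraries were scaled by TMM factors. Comparisons were tested with edgeR 4.0.16 (glmQLFit and glmQLFTest, R 4.3.3, limma 3.58.1), with a Benjamini-Hochberg adjusted p under 0.05 over all genes as a call. The fit was checked on simulated counts. Errors of folds are standard errors of the fit, and CPM use TMM-scaled library sizes. Levels per length divide CPM by the joint length of all annotated exons of the gene in kb. Replicate pairs differed by 1.74 to 21.9 in chi-square per degree of freedom over genes with counts of 20 or more, more than sampling noise, so each library counted once.

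Alternatives were DESeq2 1.42.0, RLE factors, the compared groups alone, no filter, a replicate block, leaving out each library, and leaving out the 2 libraries that stood apart. The vehicle was the reference for each dose, and high was also compared with low dose. High doses and their dose differences were compared within a code set. The members, the gene lists and the tests were chosen with earlier results of these data known. Members named were the 3 with the largest fold per complex and direction at the high dose, the catalytic core, alternative isoforms and calls against the main direction. Protein-coding status, coordinates and coding length came from GENCODE 29, and length replaced a planned table of proteins.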

Additional observations from a re-analysis of the deposited data

Results flagged for a closer look

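The difference between high and low dose was unequal between extracts of a code set, by a test of that difference in edgeR's quasi-likelihood model with Benjamini-Hochberg adjustment. For Bupleuri against Aconiti this concerned 20 members, 23.8%, against 44.0% of all genes, among them ATP5MC3 at 1.0 (log2, adjusted p = 2.78e-06), NDUFB3 at 0.55 (0.00453) and COX7A2L at -0.53 (1.34e-09). For Citri against Cimicifugae it concerned 17 members, 20.2%, against 11.1% of all genes, among them ATP5F1E at 0.52 (0.0143), NDUFC1 at 0.48 (0.0154) and COX6C at 0.42 (0.0115), which were chosen after their values were seen. Without the 2 libraries that stood apart, 1 in each extract, that count was 0. For Yijung-tang against Banhasasim-tang it concerned 4 members, 4.76%, against 10.1% of all genes, among them COX5A at -0.25 (0.0491), SDHA at 0.23 (0.00169) and ATP5PF at -0.2 (0.0326).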

How the results depend on the processing

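Counts of members called moved by over 1.5 times as follows, and no called fold of a named member changed sign, although folds near 0 that were not called did, such as ATP5MG in high-dose Cimicifugae at 0.01 without the 2 libraries that stood apart, against -0.05 with them. DESeq2 gave 1 for Banhasasim-tang high against low dose, 2 for high-dose Bupleuri, 1 and 2 for low and medium-dose Cimicifugae, 2 for low-dose Citri, 9 and 5 for low and medium-dose Yijung-tang and 27 for the Citri against Cimicifugae dose difference. RLE factors gave 2 for high-dose Bupleuri. The compared groups alone gave 10 and 13 for low and medium-dose Banhasasim-tang, 1 for its high against low dose, 3 for high-dose Bupleuri, 7 and 4 for medium and high-dose Cimicifugae, 2 for its high against low dose, 0 and 11 for low and high-dose Citri, 1 for its high against low dose, 0 for Citri against Cimicifugae and for their dose difference, and 11 and 14 for low and medium-dose Yijung-tang. No filter gave 8 and 9 for low and medium-dose Banhasasim-tang, 1, 1 and 2 for low, medium and high-dose Bupleuri, 1 for its high against low dose, 3 and 3 for low and medium-dose Cimicifugae, 15 and 1 for low and medium-dose Citri, 19 for its high against low dose, 23 for Citri against Cimicifugae, 36 for their dose difference, 14, 9 and 26 for low, medium and high-dose Yijung-tang, 23 for its high against low dose and 11 for the formulas' dose difference. Without the 2 libraries that stood apart the counts were 9 and 8 for low and medium-dose Banhasasim-tang, 1 for its high against low dose, 2 for high-dose Bupleuri, 1, 5 and 13 for low, medium and high-dose Cimicifugae, 9 for its high against low dose, 0 and 7 for low and high-dose Citri, 2 for Citri against Cimicifugae, 0 for their dose difference, 14, 11 and 28 for low, medium and high-dose Yijung-tang, 23 for its high against low dose and 10 for the formulas' dose difference. The causes were not tested. Calls over all genes can move with the setting too. Their shares are given above only for Cimicifugae without the 2 libraries that stood apart. The other counts, here and below, are thus no result about the members.

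Whether replicate numbers pair the samples is not given by the labels. In no comparison did all same-numbered libraries correlate above 0.1, which with so few libraries cannot exclude a shared culture or day. A replicate block gave 2 for high-dose Bupleuri, 1 for medium-dose Cimicifugae, 2 for low-dose Citri, 6 for Citri high against low dose, 5 for medium-dose Yijung-tang and 27 for the Citri against Cimicifugae dose difference, with 43 for high-dose Aconiti, and among 318 named values 6 gained and 0 lost a call.

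Leaving out 1 library at a time gave the following ranges of called members against the vehicle. Aconiti had 0 to 1, 7 to 12 and 38 to 42 at the low, medium and high dose, Bupleuri 0 to 0, 0 to 1 and 0 to 2, and Cimicifugae 0 to 1, 0 to 1 and 10 to 40. Citri had 0 to 5, 0 to 1 and 1 to 5, Yijung-tang 1 to 5, 0 to 3 and 11 to 18, and Banhasasim-tang 0 to 3, 2 to 3 and 4 to 7. High against low dose ranged from 31 to 35 for Aconiti, 0 to 0 for Bupleuri and Banhasasim-tang, 7 to 39 for Cimicifugae, 2 to 11 for Citri and 5 to 12 for Yijung-tang. Bupleuri against Aconiti ranged from 28 to 34, Citri against Cimicifugae from 2 to 20 and Yijung-tang against Banhasasim-tang from 4 to 9, and their dose differences from 15 to 22, 3 to 40 and 1 to 5. Members at few counts, such as NDUFA4L2 and COX6B2, are the least precise.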
